A study of Mus musculus with 35 samples.

Results

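Cell cycle and proliferation genes were followed in quadriceps muscle of 2-month-old female mice. The set was a list of 42 genes chosen by name: 11 of G1 and the G1/S transition, 11 of S phase and 20 of G2 and mitosis. This list and the others used here were chosen with earlier results of these data known, so their counts of calls are no independent test. Of these, 40 were measured, among 19938 genes with a row of their own. Ccnb1, a mitotic cyclin gene, had no row, and Cdkn1a, which encodes an inhibitor of cyclin-dependent kinases, appeared only in a row shared with another gene. The 35 arrays, 1 per mouse, came from 4 classes: mice given 4 doses of ActRIIB-Fc, mice given 1 dose of ActRIIB-Fc, Mstn-null mice, and control mice. ActRIIB-Fc is a receptor fragment fused to an antibody tail, which catches myostatin and kindred ligands before they reach the cell, and myostatin, the product of Mstn, holds muscle mass down. Each class had 3 arrays in experiment 1. In experiment 2 there were 8 Mstn-null arrays and 5 arrays of every other class. The strain, the Mstn allele, the amount and spacing of the doses and any injection given to controls are not given in the sources used here, so the number of doses and the time since the first dose cannot be told apart.

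In G1, D-type cyclins activate CDK4 and CDK6, and cyclin E then activates CDK2, which frees E2F factors to switch on the genes of DNA replication. The helicase, clamp and nucleotide-synthesis genes act in S phase, and cyclin A and cyclin B with CDK1 then drive the cell through G2 and mitosis, where kinesins, checkpoint kinases and cleavage-furrow proteins divide the chromosomes and the cell. Mature muscle fibres do not divide. Dividing cells in muscle are satellite cells, the muscle stem cells, and cells between the fibres such as macrophages, fibroblast-like progenitors and endothelial cells.

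Values are log2 expression values. The median array value was 4.39 to 4.52 in experiment 1 but 6.06 to 6.27 in experiment 2, and levels are therefore compared within an experiment. Most of these genes were dim, and 13 of the 40 averaged above the median of their arrays. Changes are log2 differences ± SE from limma over both experiments, and a gene was called changed at a Benjamini-Hochberg adjusted p under 0.05 over all genes. Skeletal muscle markers averaged a log2 value of 11.06 or more in every array. Mstn itself was lower in Mstn-null mice than in controls by a log2 change of -2.30 ± 0.23 SE (limma adjusted p = 3.54e-08). In bulk tissue a change in the number of cells of a type and a change in RNA per cell cannot be told apart.

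After 4 doses of ActRIIB-Fc the genes of G2 and mitosis rose together with cyclin D1, while most genes of G1 and S phase did not pass the test. Of the 40 genes, 18 rose and 0 fell after 4 doses against control (limma, adjusted p under 0.05). Over all genes tested, 3.14% were called, 1.91% higher and 1.23% lower. By phase, 1 of 10 genes of G1 and G1/S, 2 of 11 of S phase and 15 of 19 of G2 and mitosis rose. The median log2 change was 0.37 over the G2 and mitosis genes, 0.07 over the S-phase genes and 0.09 over the G1 and G1/S genes, beside 0.02 over all genes. All 19 genes of G2 and mitosis had a positive change, from 0.03 for Cdc20 to 0.98 for Mki67. In 8 genes every array after 4 doses lay above every control array of its experiment, namely Ccnd1, Ccna2, Mki67, Top2a, Bub1b, Kif20a, Cenpe and Ect2. Over all genes 0.873% had that pattern. The opposite one was found in 0 of the 40 and in 0.808% of all genes.

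**Figure D1:**
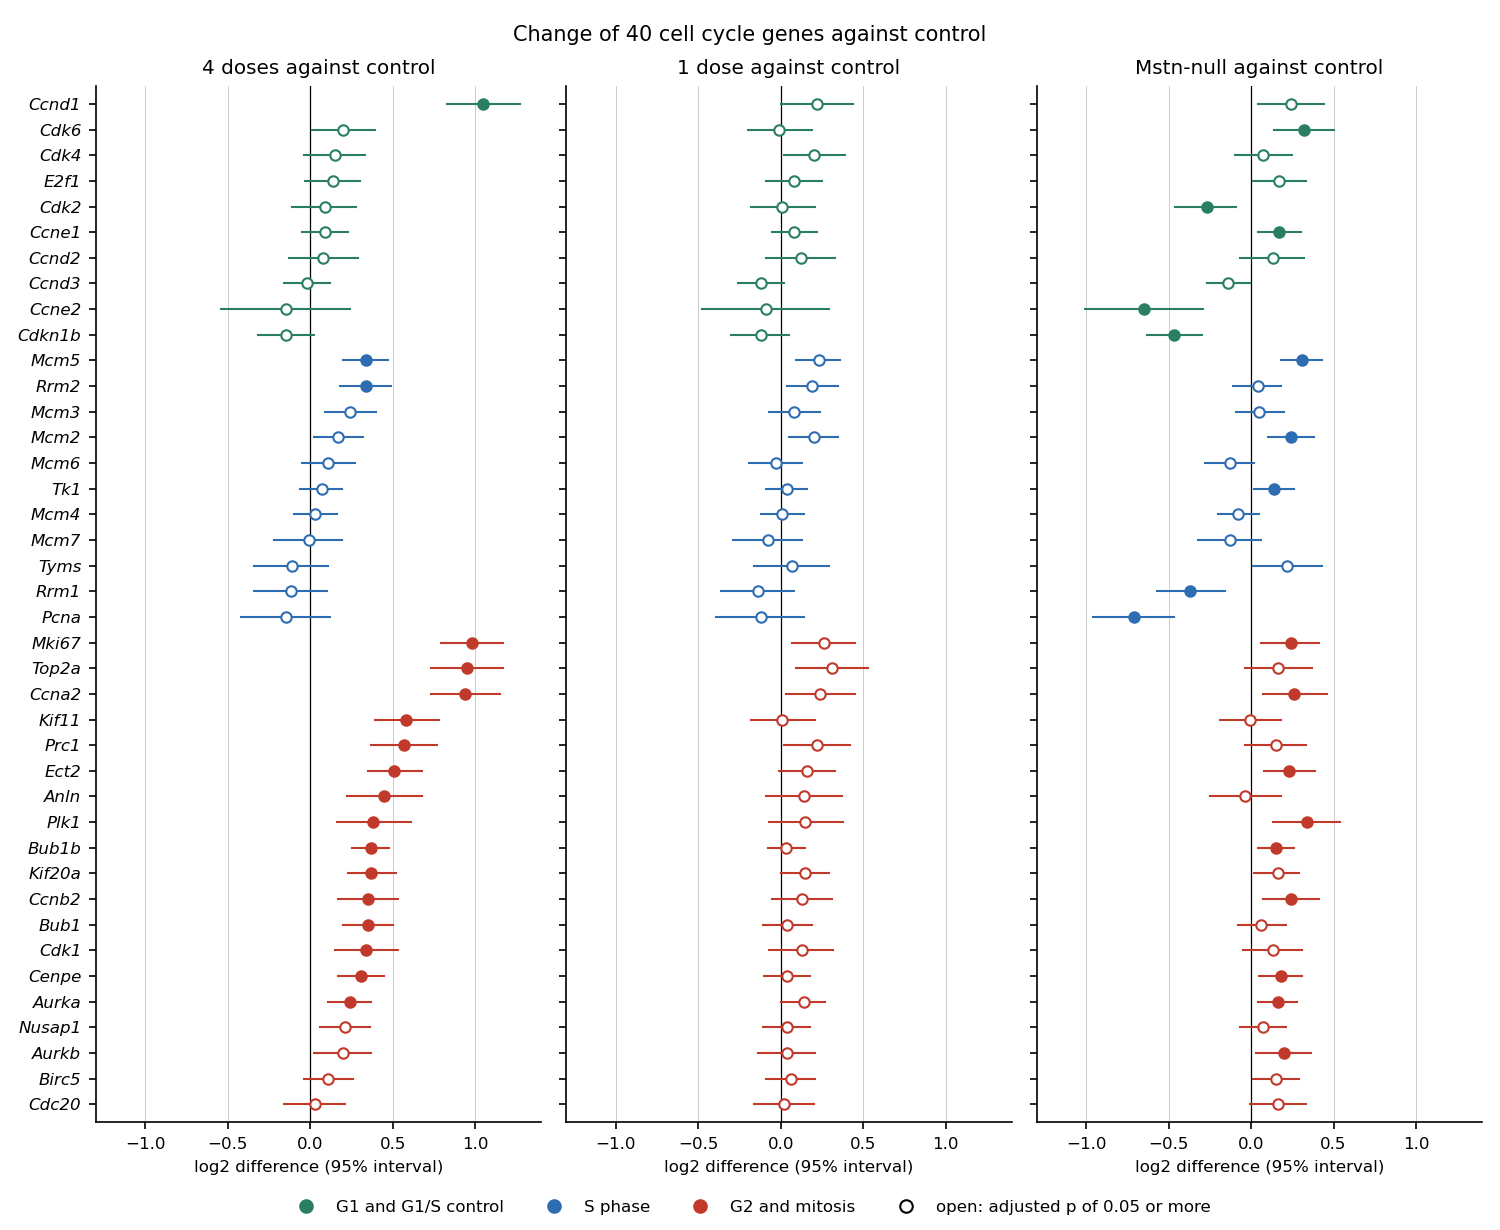
Log2 difference from control (x axis, with its 95% interval) of 40 genes (y axis, grouped by phase) after 4 doses, after 1 dose and in Mstn-null muscle. Filled dots passed an adjusted p of 0.05 in limma. After 4 doses the filled dots are Ccnd1, 2 genes of S phase and 15 of G2 and mitosis. After 1 dose none is filled, and in Mstn-null muscle filled dots lie on both sides of 0.

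Among the G1 genes, cyclin D1 changed alone. Ccnd1 encodes the D-type cyclin that growth signals raise at entry into the cycle. In experiment 2 its log2 values were 7.69, 7.65, 7.44, 7.76 and 7.89 after 4 doses, against 6.45, 6.60, 6.20, 6.26 and 6.45 in controls. In experiment 1 they were 6.06, 6.37 and 5.84 after 4 doses, against 5.57, 5.27 and 5.51 in controls. The groups did not overlap in either experiment. Ccnd1 rose by a log2 change of 1.05 ± 0.11 SE, or 2.07-fold (limma adjusted p = 3.64e-08). The other D-type cyclins did not pass the test, with Ccnd2 at 0.08 ± 0.10 SE (limma adjusted p = 0.773) and Ccnd3 at -0.02 ± 0.07 SE (limma adjusted p = 0.944). The change of Ccnd1 exceeded that of Ccnd2 by a log2 difference of 0.97, with 0.79 in experiment 1 and 1.07 in experiment 2. It exceeded that of Ccnd3 by 1.07, with 0.60 in experiment 1 and 1.34 in experiment 2. For both differences an exact permutation test of the labels within experiments gave a two-sided p of 0.000397, the smallest that 5040 arrangements allow, and 0.000397 after adjustment over the 2 comparisons. The within-array difference of Ccnd1 from Ccnd2, and from Ccnd3, was higher in 8 of 8 arrays after 4 doses than in any control array of the same experiment. These 2 comparisons were chosen after the values had been seen.

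The kinase partner Cdk6 had log2 values of 6.60, 6.45, 6.31, 6.66 and 6.60 after 4 doses in experiment 2, against 6.16, 6.19, 6.36, 6.46 and 6.21 in controls. In experiment 1 it had 4.76, 4.92 and 4.79 after 4 doses, against 4.70 in each control. The groups overlapped in experiment 2, and the change of 0.20 ± 0.09 SE did not pass the test (limma adjusted p = 0.305). Cdkn1b, which encodes an inhibitor that holds cyclin E with CDK2 inactive, had 8.22, 8.05, 7.95, 8.07 and 8.40 after 4 doses in experiment 2, against 8.39, 8.30, 8.32, 8.43 and 8.29 in controls. In experiment 1 its values were 7.05, 7.11 and 6.73 after 4 doses, against 7.09, 6.93 and 7.04 in controls. Its groups overlapped in both experiments, with a change of -0.15 ± 0.09 SE (limma adjusted p = 0.435). A second, dimmer row of Cdkn1b gave a larger change of -0.52, which did not pass the test either (limma adjusted p = 0.186). The other 5 genes, the kinase genes Cdk4 and Cdk2, the cyclin E genes Ccne1 and Ccne2 and the transcription factor gene E2f1, had log2 changes between -0.15 and 0.15, with limma adjusted p from 0.466 to 0.777.

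In S phase, Mcm5 and Rrm2 rose. Mcm5 encodes a subunit of the helicase that unwinds DNA at replication forks. In experiment 1 its log2 values were 4.91, 4.92 and 5.09 after 4 doses, against 4.63, 4.58 and 4.45 in controls. In experiment 2 they were 6.35, 6.68, 6.45, 6.34 and 6.38 after 4 doses, against 5.96, 6.38, 6.29, 6.04 and 6.09 in controls. The groups were apart in experiment 1 and overlapped in experiment 2, and the log2 change was 0.34 ± 0.07 SE (limma adjusted p = 0.00148). Rrm2, the gene of the small subunit of ribonucleotide reductase, which makes deoxynucleotides, had 5.92, 5.72, 5.99, 5.81 and 5.69 after 4 doses in experiment 2, against 5.29, 5.51, 5.25, 5.54 and 5.30 in controls. In experiment 1 it had 4.21, 4.44 and 4.25 after 4 doses, against 4.14, 4.05 and 4.26 in controls. Here the groups were apart in experiment 2 and overlapped in experiment 1, with a change of 0.34 ± 0.08 SE (limma adjusted p = 0.00735). With quantile normalization within experiments the change of Rrm2 was 0.29 and missed the threshold (limma adjusted p = 0.0531).

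A further helicase gene, Mcm3, had log2 values of 6.51, 6.31, 6.23, 6.62 and 6.36 after 4 doses in experiment 2, against 6.06, 6.29, 6.28, 6.30 and 6.10 in controls. In experiment 1 its values were 4.43, 4.79 and 4.61 after 4 doses, against 4.52, 4.11 and 4.23 in controls. The groups overlapped in both experiments, and the change of 0.24 ± 0.08 SE did not pass the test (limma adjusted p = 0.0814). The other helicase genes Mcm2, Mcm4, Mcm6 and Mcm7 had changes between -0.01 and 0.17. Pcna, which encodes the sliding clamp of DNA polymerase, the large reductase subunit gene Rrm1, the thymidylate synthase gene Tyms and the thymidine kinase gene Tk1 had changes of -0.15, -0.12, -0.11 and 0.07. For these 8 genes limma's adjusted p ranged from 0.279 to 0.967.

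The genes of G2 and mitosis held the most calls. Mki67 encodes a protein that coats mitotic chromosomes and is the usual marker of cycling cells. In experiment 2 its log2 values were 6.24, 6.10, 5.86, 6.08 and 6.48 after 4 doses, against 5.14, 4.87, 4.82, 5.09 and 5.09 in controls. In experiment 1 they were 4.07, 4.71 and 4.14 after 4 doses, against 3.66, 3.63 and 3.58 in controls. Every array after 4 doses was above every control, and the log2 change was 0.98 ± 0.09 SE, or 1.97-fold (limma adjusted p = 7.9e-09). Ccna2 encodes cyclin A2, the partner of CDK2 and CDK1 from S phase to mitosis. It had 5.76, 5.78, 5.51, 6.06 and 6.30 after 4 doses in experiment 2, against 4.71, 4.69, 4.69, 4.70 and 4.71 in controls. In experiment 1 it had 3.57, 3.92 and 3.44 after 4 doses, against 3.03, 3.36 and 2.93 in controls. The controls of experiment 2 lay within 0.02 of each other, and the log2 change was 0.94 ± 0.10 SE (limma adjusted p = 2.12e-07).

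Top2a encodes the topoisomerase that untangles sister chromatids. Its log2 values in experiment 2 were 6.18, 5.91, 5.95, 6.35 and 6.55 after 4 doses, against 5.23, 5.01, 5.12, 4.98 and 4.93 in controls. In experiment 1 they were 3.58, 4.12 and 3.51 after 4 doses, against 3.02, 3.12 and 3.15 in controls. The groups were apart in both, with a log2 change of 0.95 ± 0.11 SE (limma adjusted p = 3.84e-07). A second, dimmer row of Top2a gave 0.25, which did not pass the test (limma adjusted p = 0.202). Bub1b encodes a kinase-like protein of the spindle checkpoint. Its log2 values in experiment 2 were 5.57, 5.56, 5.41, 5.34 and 5.48 after 4 doses, against 4.95, 5.14, 4.97, 5.10 and 5.06 in controls. In experiment 1 they were 4.26, 4.13 and 4.26 after 4 doses, against 3.88, 4.12 and 3.88 in controls. The lowest array after 4 doses and the highest control of experiment 1 differed by little, and the log2 change was 0.37 ± 0.06 SE (limma adjusted p = 6.6e-05).

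**Figure D2:**
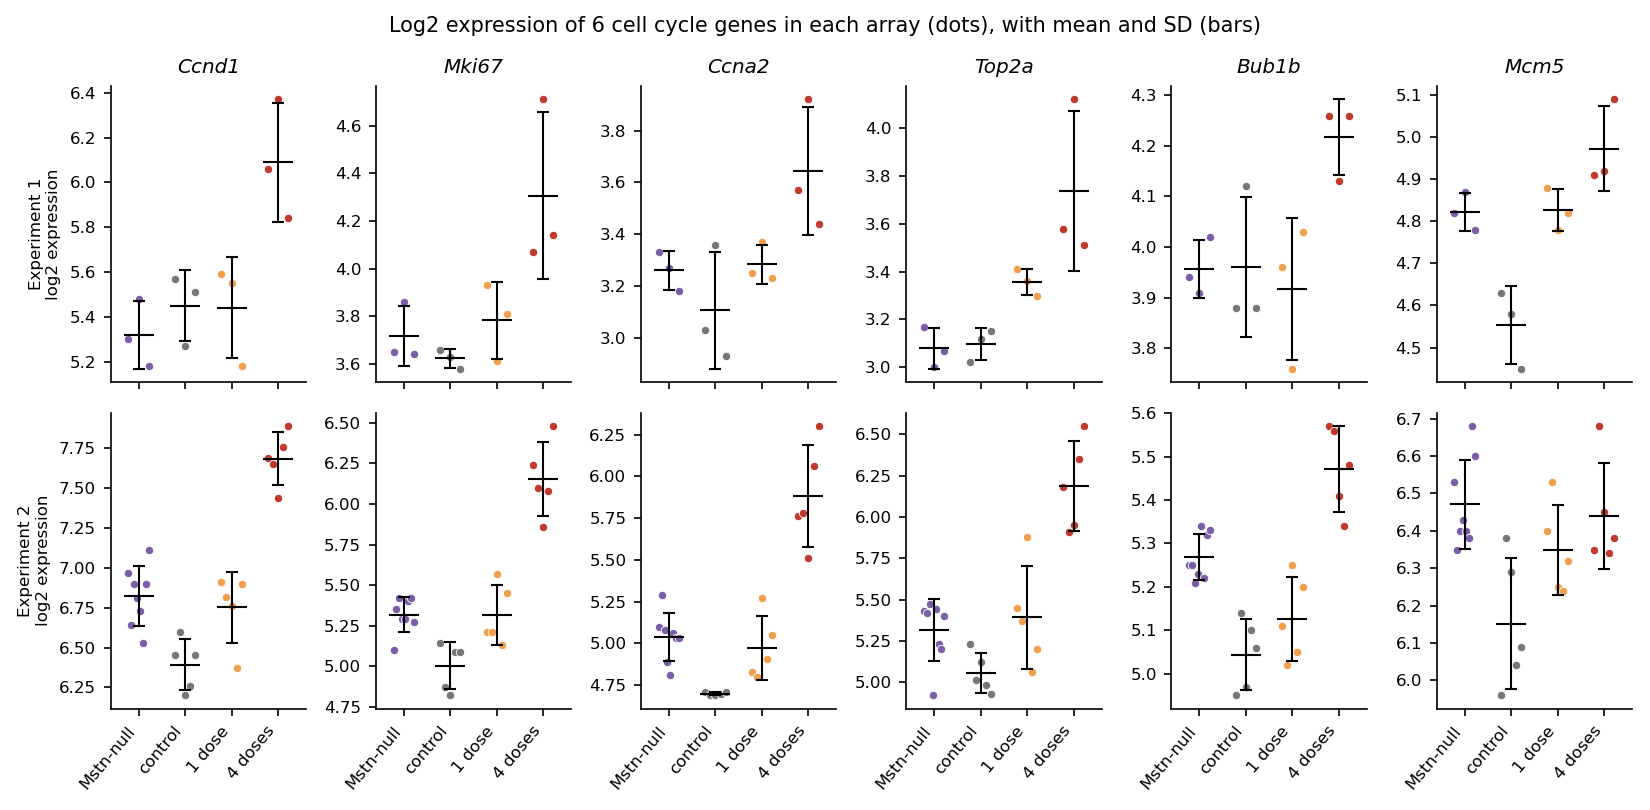
Log2 expression (y axis, a scale of its own in each panel) of Ccnd1, Mki67, Ccna2, Top2a, Bub1b and Mcm5 in every array, by class (x axis), with experiment 1 in the top row and experiment 2 in the bottom row. Dots are arrays and bars are the mean and SD of a group of 3, 5 or 8 arrays. In all panels but that of Mcm5 in experiment 2, every array after 4 doses stands above every array of the other classes.

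The other 11 genes of G2 and mitosis that rose fall into a few jobs. Of the spindle motors and midzone proteins, Kif11, which pushes the spindle poles apart, changed by 0.58 ± 0.10 SE (limma adjusted p = 0.000186). Prc1, which bundles midzone microtubules, changed by 0.57 ± 0.10 SE (limma adjusted p = 0.00034). The midzone motor gene Kif20a changed by 0.37 and the kinetochore motor gene Cenpe by 0.31 (limma adjusted p = 0.00134 and 0.00705). Of the genes of the cleavage furrow, Ect2, an activator of the small GTPase RhoA, changed by 0.51 and Anln, which encodes anillin, by 0.45 (limma adjusted p = 0.000119 and 0.0179). Of the mitotic kinases and cyclins, Plk1 changed by 0.38, the checkpoint kinase gene Bub1 by 0.35, the cyclin gene Ccnb2 by 0.35, Cdk1 by 0.34 and the spindle-pole kinase gene Aurka by 0.24 (limma adjusted p from 0.00378 to 0.0444). The 4 genes that did not pass the test were Nusap1, a microtubule binder of the spindle, at 0.21, the kinase gene Aurkb at 0.20, Birc5, whose product sits with that kinase on chromosomes, at 0.11, and Cdc20, an activator of the ubiquitin ligase that starts anaphase, at 0.03 (limma adjusted p from 0.131 to 0.93).

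Of the 18 calls, 13 held without any 1 array, and 11 also under every alternative processing tried except the filter on dim genes, which removes most of the 40. Without replicate 4 of the controls of experiment 2, Ccnb2 lost its call (limma adjusted p = 0.0502). Anln lost it without replicate 3 of those controls (limma adjusted p = 0.0529) and without replicate 5 of the 4-dose arrays of experiment 2 (limma adjusted p = 0.0502). Aurka, Cdk1 and Plk1 lost it without any 1 of 6, 9 and 14 arrays, with limma adjusted p of up to 0.0789, 0.101 and 0.115. Some losses under other processing were larger. Without the ActRIIB-Fc arrays of narrower interquartile range than every control, Cdk1, Plk1, Ccnb2 and Aurka lost their calls (limma adjusted p = 0.448, 0.446, 0.142 and 0.122). After quantile normalization Anln lost its call (limma adjusted p = 0.102), and after median centring Aurka did (limma adjusted p = 0.0978).

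Because the G2 and mitosis genes moved together, the promoters of the 4 called genes with the smallest p that have an entry in the RefSeq promoter table are printed here (GRCm38.p6, 250 bases before to 50 bases after the start site that table lists first, on the strand of the gene). That site lies 9 bases inside the outer end of the gene in the RefSeq gene table for Bub1b, 10 for Top2a, 71 for Mki67 and 375 for Ect2. Ccnd1 and Ccna2 have no entry. Capitals mark 2 kinds of letters, each searched on both strands. The letters TTTGAA, as well as the variant spelled TTCGAA, are those of the cell cycle genes homology region, an element of many mitotic promoters. The CCAAT box often stands beside it. The windows are chr7:135716330-135716629 (minus strand) for Mki67, chr11:99024140-99024439 (minus strand) for Top2a, chr2:118597961-118598260 (plus strand) for Bub1b and chr3:27153829-27154128 (minus strand) for Ect2.
Mki67: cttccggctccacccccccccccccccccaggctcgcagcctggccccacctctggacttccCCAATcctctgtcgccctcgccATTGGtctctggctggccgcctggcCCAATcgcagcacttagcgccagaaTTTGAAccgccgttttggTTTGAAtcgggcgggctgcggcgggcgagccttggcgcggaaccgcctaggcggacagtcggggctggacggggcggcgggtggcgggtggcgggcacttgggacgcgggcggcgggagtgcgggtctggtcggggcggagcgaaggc
Top2a: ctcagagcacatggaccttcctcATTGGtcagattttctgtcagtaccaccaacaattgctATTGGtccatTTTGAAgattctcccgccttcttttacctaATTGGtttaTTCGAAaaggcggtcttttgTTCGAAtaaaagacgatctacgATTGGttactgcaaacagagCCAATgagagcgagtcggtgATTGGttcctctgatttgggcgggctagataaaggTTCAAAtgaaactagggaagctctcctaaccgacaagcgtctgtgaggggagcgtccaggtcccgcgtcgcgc
Bub1b: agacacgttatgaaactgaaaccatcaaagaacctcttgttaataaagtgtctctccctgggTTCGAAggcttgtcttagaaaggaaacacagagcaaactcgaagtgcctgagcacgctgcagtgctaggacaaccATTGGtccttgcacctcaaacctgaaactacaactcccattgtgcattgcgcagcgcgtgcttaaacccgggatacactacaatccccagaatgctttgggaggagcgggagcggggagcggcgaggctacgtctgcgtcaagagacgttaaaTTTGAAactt
Ect2: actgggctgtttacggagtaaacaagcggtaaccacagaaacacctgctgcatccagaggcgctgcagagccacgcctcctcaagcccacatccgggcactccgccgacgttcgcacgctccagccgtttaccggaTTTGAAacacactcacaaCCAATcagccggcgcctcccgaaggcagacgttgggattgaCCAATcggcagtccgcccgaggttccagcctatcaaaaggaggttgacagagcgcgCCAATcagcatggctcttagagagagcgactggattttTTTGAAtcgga

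The Mki67 window held the homology-region letters at 2 places and the CCAAT letters at 3, and the Top2a window held them at 4 and 6 places. The Bub1b window held them at 2 places and 1 place, and the Ect2 window at 2 and 3 places. Of the 40 genes, 33 had a window. The homology-region letters were present in 13 of 16 windows of G2 and mitosis genes, 2 of 10 of S-phase genes and 0 of 7 of G1 and G1/S genes, and in 19.4% of the first listed windows of all 27025 genes of the table. CCAAT was present in 13 of 16, 8 of 10 and 2 of 7 windows of those groups, and in 37.9% of all windows. The E2F letters TTTGGCGC, TTTCCCGC, TTTGCCGC and TTTCGCGC, also on both strands, were present in 1 of 16, 4 of 10 and 1 of 7, and in 2.32% of all windows. By the call after 4 doses, 12 of 15 windows of genes that rose held the homology-region letters, against 3 of 18 of genes that were not called. Phase and call overlap, and a match of letters does not show that a factor binds there.

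Within experiment 2 alone, 16 of the 40 genes rose after 4 doses and 0 fell (limma, 2.96% of all genes called, 1.98% higher). Within experiment 1 alone, with 3 arrays a class, 2 rose, Mki67 by 0.68 and Ccnd1 by 0.64 (limma adjusted p = 0.0211 and 0.0454, 0.471% of all genes called, 0.171% higher). Those 2 calls of experiment 1 were both lost without replicate 2 or replicate 3 of its 4-dose arrays or of its controls, and 1 of them was lost without any of 10 other arrays. The difference between the experiments was itself tested. None of the 40 differences passed the test (limma, 0 of 40, 0.00502% of all genes called), the smallest adjusted p being 0.27 for Ccna2, at a log2 change of 1.18 in experiment 2 and 0.53 in experiment 1. At an unadjusted limma p under 0.05 there were 8, all with the larger change in experiment 2, and 6 were of G2 and mitosis. The share of all genes at that level is not given here. The median difference was 0.18 over the 40 genes, beside 0.02 over all genes. The sign of the change was positive in both experiments for 29 genes, negative in both for 3 and opposite for 8. Of the 19 genes of G2 and mitosis, 18 were positive in both. Across the 40 genes the changes of the 2 experiments had a Pearson r of 0.74, a description over genes, which are not independent replicates. The median change of the G2 and mitosis genes was 0.47 in experiment 2 and 0.20 in experiment 1. On simulated data the test of the difference found 23% of genes that differed by a log2 value of 0.5 and 84% of those that differed by 1. Those data held 100 changed genes of each size and noise that was independent between genes. In the real data 1 of 19938 genes was called. The adjustment is stricter with so few changed genes, so these shares may be too high for the real data.

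**Figure D3:**
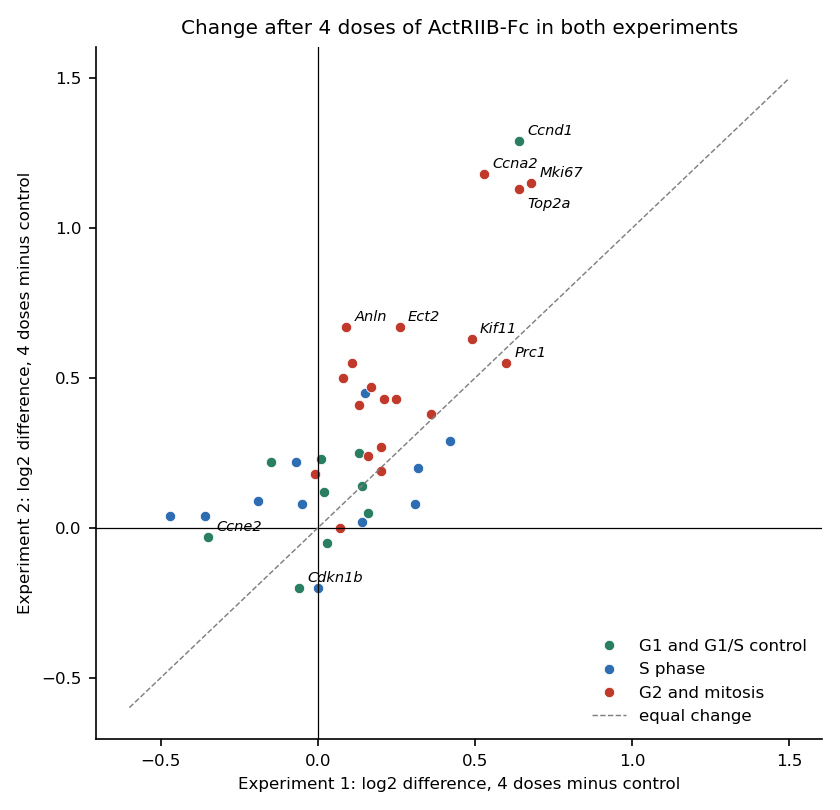
Log2 change after 4 doses against control of each of 40 genes in experiment 1 (x axis) and experiment 2 (y axis), coloured by phase. The dashed line marks equal change. Ccnd1, Mki67, Top2a and Ccna2 stand at the top right, with changes from 0.53 to 0.68 in experiment 1 and from 1.13 to 1.29 in experiment 2.

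After 1 dose, 0 of the 40 genes passed the test against control (limma, 1.11% of all genes called). At an unadjusted p under 0.05 there were 11, and all 11 were higher, where 11.9% of all genes passed and 7.87% were higher. The median log2 change was 0.08, beside 0.02 over all genes, and 32 of 40 changes were positive, or 22 of 40 with arrays centred on their medians and 26 of 40 with quantile normalization. Over all genes 58.1% were positive. The smallest adjusted p, 0.0922, belonged to Mcm5 at 0.23 ± 0.07 SE, and without replicate 2 of the controls of experiment 2 it passed, at 0.26 (limma adjusted p = 0.0397). Top2a stood at 0.31 and Mki67 at 0.26 (limma adjusted p = 0.199 and 0.213). With the interquartile range of the arrays as a covariate these 2 passed, Mki67 at 0.32 and Top2a at 0.37 (limma adjusted p = 0.0464 and 0.0478).

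The 5 leading genes had these log2 values after 1 dose in experiment 2. Ccnd1 had 6.91, 6.82, 6.76, 6.37 and 6.90, with 4 of 5 arrays above every control. Mki67 had 5.21, 5.21, 5.57, 5.13 and 5.45, also with 4 of 5 arrays above every control, whose highest was 5.14. Ccna2 had 4.83, 4.80, 5.27, 4.91 and 5.05, all 5 above the highest control of 4.71. Top2a had 5.45, 5.37, 5.88, 5.06 and 5.20, and Bub1b had 5.11, 5.02, 5.25, 5.05 and 5.20. Both of these overlapped with controls. In experiment 1, Top2a after 1 dose had 3.41, 3.36 and 3.30, against 3.02, 3.12 and 3.15 in controls, with no overlap. Ccnd1 after 1 dose had 5.59, 5.55 and 5.18 there, against 5.57, 5.27 and 5.51 in controls, and it overlapped, as did Mki67, Ccna2 and Bub1b. Within experiment 1 alone 0 of the 40 were called after 1 dose, and within experiment 2 alone 0 (limma, 0.0502% and 1.63% of all genes called). For the difference between the experiments the count was 0 too (limma, smallest adjusted p = 0.964, 0.0% of all genes called).

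Set against 1 dose directly, 4 doses gave higher values for 7 of the 40 genes and lower values for 0 (limma, 0.321% of all genes called, 0.276% higher and 0.0451% lower). The log2 differences were 0.83 ± 0.11 SE for Ccnd1, 0.72 ± 0.09 SE for Mki67, 0.70 ± 0.10 SE for Ccna2, 0.64 ± 0.11 SE for Top2a, 0.57 ± 0.10 SE for Kif11, 0.35 ± 0.08 SE for Ect2 and 0.33 ± 0.06 SE for Bub1b. Their limma adjusted p ranged from 1.24e-05 to 0.0427. Ect2 lost its call without any 1 of 18 arrays, with a limma adjusted p of up to 0.107, and the dimmer row of Top2a gave 0.28 (limma adjusted p = 0.35). Bub1b, at 0.27, lost it without the ActRIIB-Fc arrays whose interquartile range was narrower than in every control (limma adjusted p = 0.177). By phase, 1 of 10 genes of G1 and G1/S, 0 of 11 of S phase and 6 of 19 of G2 and mitosis were called. At an unadjusted p under 0.05 there were 18 of the 40, all higher, and 1 of the 11 S-phase genes, where 7.43% of all genes passed and 3.85% were higher. In Ccnd1, Ccna2, Mki67, Top2a, Bub1b and Kif11 every array after 4 doses lay above every array after 1 dose in both experiments (6 of 40, with 0.311% of all genes).

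Kif11 had log2 values of 5.59, 5.10, 4.82, 5.47 and 5.61 after 4 doses in experiment 2, against 4.39, 4.54, 4.70, 4.48 and 4.73 after 1 dose. In experiment 1 they were 3.13, 3.32 and 2.99 after 4 doses, against 2.96, 2.96 and 2.71 after 1 dose. Against control its change was 0.58 after 4 doses and 0.01 after 1 dose. Kif11 was singled out here after its values had been seen. The means of controls, 1 dose and 4 doses followed that order in both experiments for 14 of the 40 genes, 11 of them of G2 and mitosis, 3 of S phase (Mcm3, Mcm5 and Rrm2) and 0 of G1 and G1/S, with 5.44% of all genes. Ccnd1 was not among them, since its mean of 5.44 after 1 dose in experiment 1 lay just under the 5.45 of controls.

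In 5 genes, Ccnd1, Ccna2, Mki67, Top2a and Bub1b, every array after 4 doses stood above every array of the other 3 classes in both experiments. Of all 19938 genes 14 had that pattern, or 0.0702%.

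In Mstn-null muscle the genes moved both ways. Against control, 14 of the 40 genes were higher and 5 lower in Mstn-null mice (limma). Over all genes 41.8% were called, 25.4% higher and 16.4% lower, so that the 47.5% among these genes was close to the share of all genes. All 11 Mstn-null arrays had a narrower interquartile range of log2 values than every control of their experiment, by 0.17 on average (exact permutation test within experiments, two-sided p = 0.000233). The counts turned on scaling, with 6 higher and 6 lower after quantile normalization within experiments, 3 higher and 7 lower with arrays centred on their medians, and 2 higher and 0 lower with the interquartile range as a covariate. The counts over all 19938 genes turned on it too. In the same order they were 3160 higher and 2599 lower, 1905 higher and 4189 lower, and 325 higher and 271 lower. Without replicate 4 of the controls of experiment 2 the calls fell to 12. None of the 19 calls held under all of these settings. Within experiment 1 alone 0 were called and within experiment 2 alone 22 (limma, 3.48% and 45.6% of all genes called), and 0 of the 40 differences between the experiments passed the test (limma, smallest adjusted p = 0.0725, 1.68% of all genes called).

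By phase, 9 of 19 genes of G2 and mitosis were higher and 0 lower, 3 of 11 of S phase higher and 2 lower, and 2 of 10 of G1 and G1/S higher and 3 lower. The median change of the 19 G2 and mitosis genes was 0.25 in experiment 2 and 0.06 in experiment 1, beside 0.11 and 0.01 over all genes. Across these 19 the changes of the 2 experiments had a Pearson r of -0.13, with 12 positive in both, 1 negative in both and 6 of opposite sign. Pcna was lower by a log2 change of -0.71 ± 0.12 SE and Cdkn1b by -0.47 ± 0.08 SE (limma adjusted p = 5.35e-05 and 5.31e-05). Pcna had log2 values of 7.23 to 8.06 with a median of 7.64 in the 8 Mstn-null arrays of experiment 2, against 8.33, 8.45, 8.45, 8.39 and 8.48 in controls, and in experiment 1 it had 6.13, 6.01 and 6.19 in Mstn-null arrays, against 6.42, 6.43 and 6.70 in controls. Cdkn1b had 7.46 to 8.12 with a median of 7.72 in the Mstn-null arrays of experiment 2, against 8.39, 8.30, 8.32, 8.43 and 8.29 in controls, and in experiment 1 it had 6.79, 6.55 and 6.79 in Mstn-null arrays, against 7.09, 6.93 and 7.04 in controls. No Mstn-null array of these 2 genes overlapped with a control (2 of 40 lower, with 2.57% of all genes). The opposite pattern was found in 0 of 40, with 1.4% of all genes. Both were lower and called under quantile normalization and under centring on medians, and both lost the call with the interquartile range as a covariate (Pcna at -0.35 and Cdkn1b at -0.28, limma adjusted p = 0.126 and 0.0812). The other row of each gene was lower too, by a log2 change of -0.70 for Pcna and of -1.63 for Cdkn1b (limma adjusted p = 4e-05 and 2.26e-07). Ccne2 was lower by a log2 change of -0.65, Rrm1 by -0.37 and Cdk2 by -0.27 (limma adjusted p = 0.00472, 0.00499 and 0.0176). Rrm1 had 8.45 to 9.28 with a median of 8.87 in the Mstn-null arrays of experiment 2, against 9.23, 9.30, 9.41, 9.41 and 9.07 in controls, and in experiment 1 it had 7.06, 6.89 and 7.07 in Mstn-null arrays, against 7.29, 7.09 and 7.30 in controls. Its groups overlapped in experiment 2 and stood apart in experiment 1.

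Of the genes that were higher in Mstn-null muscle, Plk1 had the largest change, 0.34 ± 0.10 SE, followed by Cdk6 at 0.32 ± 0.09 SE and Mcm5 at 0.31 ± 0.06 SE (limma adjusted p = 0.0103, 0.00505 and 0.000285). Cdk6 had log2 values of 6.39 to 7.07 with a median of 6.60 in the Mstn-null arrays of experiment 2, against 6.16, 6.19, 6.36, 6.46 and 6.21 in controls. In experiment 1 it had 4.99, 4.94 and 4.69 in Mstn-null arrays, against 4.70 in each control, so the groups overlapped in both. Ccne1, the other G1 gene that was higher, had 5.59 to 5.96 with a median of 5.73 in the Mstn-null arrays of experiment 2, against 5.58, 5.73, 5.63, 5.24 and 5.63 in controls. In experiment 1 it had 4.29, 4.15 and 3.99 in Mstn-null arrays, against 4.01, 4.05 and 4.07 in controls, again with overlap. The other 11, Ect2, Mki67, Mcm2, Ccnb2, Ccna2, Aurkb, Cenpe, Ccne1, Aurka, Bub1b and Tk1, had changes from 0.14 to 0.26. A second, dimmer row of Tk1 gave 0.34 (limma adjusted p = 0.0116), where the row used gave 0.14. Ccnd1 was at 0.24 ± 0.10 SE and Top2a at 0.16 ± 0.10 SE, and neither passed the test (limma adjusted p = 0.0525 and 0.186).

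Muscle after 4 doses was set against Mstn-null muscle directly, and 17 of the 40 genes were higher and 1 lower (limma, 20.2% of all genes called, 11.4% higher and 8.75% lower). The log2 differences were 0.81 ± 0.10 SE for Ccnd1, 0.79 ± 0.10 SE for Top2a, 0.74 ± 0.09 SE for Mki67, 0.68 ± 0.10 SE for Ccna2 and 0.59 ± 0.09 SE for Kif11, with limma adjusted p from 5.67e-07 to 4.63e-05. The arrays of Ccnd1, Ccna2, Mki67, Top2a, Bub1b and Kif11 were higher after 4 doses than in Mstn-null muscle without overlap in both experiments (6 of 40, with 0.456% of all genes). The Mstn-null arrays of experiment 2 ranged from 6.53 to 7.11 with a median of 6.86 for Ccnd1, and from 5.10 to 5.42 with a median of 5.32 for Mki67. The gene that was lower was Tyms. It had 5.57, 5.33, 5.31, 5.48 and 5.24 after 4 doses in experiment 2, against 5.30 to 6.03 with a median of 5.70 in Mstn-null arrays, and in experiment 1 it had 3.22, 3.47 and 3.53 after 4 doses, against 3.49, 3.69 and 3.90 in Mstn-null arrays. The groups overlapped in both experiments, the difference was -0.33 ± 0.10 SE (limma adjusted p = 0.0245), and it lost that call under quantile normalization, where 21 genes were higher and 0 lower. With the interquartile range as a covariate 6 of the 40 genes were higher and 0 lower. Over all 19938 genes quantile normalization gave 1689 higher and 1553 lower, and the covariate 219 higher and 175 lower. Muscle after 1 dose differed from Mstn-null muscle in fewer of the 40 genes. Pcna, Ccne2, Cdkn1b and Cdk2 were higher after 1 dose, by 0.59, 0.55, 0.34 and 0.29, and Cdk6 was lower, by a log2 change of -0.32 (limma, 4 of 40 higher and 1 lower, 16.8% of all genes called, 10.9% higher and 5.9% lower). These 5 calls of 40 were no more than the share of all genes. Without replicate 6 or replicate 8 of the Mstn-null arrays of experiment 2 there were 3 calls. With the interquartile range as a covariate there were 0, beside 501 of all 19938 genes.

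A wider list of 116 further genes of the pathway, 113 of them measured, was read in the same way after 4 doses, and it too held most of its calls in G2 and mitosis. Of 57 genes of G2 and mitosis, 17 rose and 1 fell, of 34 of S phase 1 rose, and of 22 of G1 and G1/S 1 rose (limma). Over all genes 3.14% were called, 1.91% higher and 1.23% lower. Their median log2 changes were 0.22, 0.06 and 0.11. The smallest p-values among G2 and mitosis genes were those of Kif23, a motor of the midzone, at 0.51 ± 0.07 SE, the condensin gene Ncapg at 0.45 ± 0.06 SE and the spindle gene Ckap2 at 0.47 ± 0.09 SE (limma adjusted p = 3.34e-06, 1.06e-05 and 0.00131). The one that fell was Pttg1, which encodes securin, a brake on the separation of sister chromatids, at -0.52 ± 0.10 SE (limma adjusted p = 0.00151). In S phase the chromatin assembly gene Chaf1b rose by 0.30 (limma adjusted p = 0.025), and Dbf4 and Pole2 stood at 0.27 and 0.24 without passing the test (limma adjusted p = 0.0622 and 0.0884). In G1 the gene that rose was Cdkn1c, which encodes an inhibitor of cyclin-dependent kinases, at 0.78 ± 0.07 SE, or 1.72-fold (limma adjusted p = 7.9e-09). Its mean log2 value was 8.94 after 4 doses and 8.10 in controls in experiment 2, and 7.15 after 4 doses and 6.47 in controls in experiment 1. The next in G1, E2f7 at 0.25 and Cks1b at 0.27, did not pass the test (limma adjusted p = 0.147 and 0.18).

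Markers of cells that can divide in muscle were measured in the same arrays. The mean of the 19 G2 and mitosis genes was 5.63 to 5.77 after 4 doses in experiment 2, against 5.10 to 5.20 in controls, and 3.63 to 3.78 after 4 doses in experiment 1, against 3.39 to 3.48 in controls. Of the macrophage and myeloid markers 12 of 22 were higher after 4 doses and 0 lower, with a median log2 change of 0.48, from -0.02 for Cx3cr1 to 0.72 for Lyz2. Over all genes 1.91% were higher and 1.23% lower. The mean of those 22 markers was 6.84 to 7.01 after 4 doses in experiment 2, against 6.17 to 6.43 in controls, without overlap. In experiment 1 it was 4.72 to 4.86 after 4 doses, against 4.40 to 4.87 in controls, with overlap, where the G2 and mitosis genes did not overlap. After 1 dose the macrophage list had a median of 0.26 with 0 of 22 called, with 1.11% of all genes called.

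Of 16 satellite cell and myogenic markers, 2 rose after 4 doses, the fusion gene Mymk by 0.48 and the adhesion gene Vcam1 by 0.34 (limma adjusted p = 0.000541 and 0.00904), and the median was 0.11. For this and the following lists the share over all genes was 1.91% higher and 1.23% lower. The mean of the 16 was 7.44 to 7.52 after 4 doses in experiment 2, against 7.30 to 7.33 in controls, and 5.63 to 5.65 after 4 doses in experiment 1, against 5.53 to 5.61 in controls. As with the G2 and mitosis genes, there was no overlap in either experiment. Of 11 markers of fibro-adipogenic progenitors, the fibroblast-like cells between fibres, 2 rose, Smoc2 by 0.54 and Cd34 by 0.38, and the median was 0.30. The mean of these 11 was 9.03 to 9.35 after 4 doses in experiment 2, against 8.59 to 8.86 in controls, without overlap. In experiment 1 it was 6.69 to 7.04 after 4 doses, against 6.53 to 7.31 in controls, with overlap. Of 16 endothelial markers 0 rose and 1, Flt1, fell, with a median of -0.00, and of 12 lymphocyte and 4 erythroid markers 0 were called, with medians of 0.05 and 0.09. The markers Vcam1, Smoc2, Cd34 and Flt1, and Pttg1 above, were named after their values had been seen. No marker was at 0 in any array, the lowest value in the table being 0.4. The part of these cell types in the rise of the mitotic genes was not tested.

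In Mstn-null muscle the mean of the 19 G2 and mitosis genes was 5.27 to 5.47 in experiment 2, against 5.10 to 5.20 in controls, and 3.49 to 3.50 in experiment 1, against 3.39 to 3.48 in controls. Over all genes 41.8% were called in Mstn-null muscle, 25.4% higher and 16.4% lower (limma), and the counts of the marker lists stand beside that. Counting both directions, the macrophage, satellite cell and endothelial lists were called at close to that 41.8%. The lymphocyte and progenitor lists were called at less, and the erythroid list at more. By direction, every called macrophage, lymphocyte and erythroid marker was higher, and every called endothelial marker was lower. The share higher among macrophage markers was above the 25.4% of all genes, and the share lower among endothelial markers above the 16.4%. Of the macrophage and myeloid markers 9 of 22 were higher in Mstn-null muscle and 0 lower (limma), with a median log2 change of 0.21. Their mean was 6.44 to 7.03 in Mstn-null arrays of experiment 2, against 6.17 to 6.43 in controls, and 4.45 to 4.67 in Mstn-null arrays of experiment 1, against 4.40 to 4.87 in controls. Of the lymphocyte markers 3 of 12 were higher (Cd8a, Cd2 and Ccl5), and of the erythroid markers 3 of 4 (Slc4a1, Epb42 and Klf1), with medians of 0.16 and 0.28 and 0 lower in either list. In experiment 2 the lymphocyte mean was 5.25 to 5.45 in Mstn-null arrays, against 5.05 to 5.19 in controls, and the erythroid mean was 6.19 to 6.82 in Mstn-null arrays, against 5.94 to 6.15 in controls. These 3 lists stood apart from controls in experiment 2 and overlapped with them in experiment 1. Of the satellite cell and myogenic markers 5 of 16 were higher (Pax7, Myod1, Calcr, Fgfr4 and Mymk) and 2 lower (Myf5 and Chodl), with a median of 0.12. Of the progenitor markers Smoc2 was higher and Dpt lower of 11, with a median of 0.04. These markers were named after their values had been seen. Of the endothelial markers 0 of 16 were higher and 7 lower, with a median of -0.24. These lists were read from the same 11 Mstn-null arrays of narrow range. With the interquartile range as a covariate the calls over all genes fell from 8337 to 596 (limma). The marker lists were not counted under the other scalings. The part of these cell types in the changes of Mstn-null muscle was not tested.

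**Figure D4:**
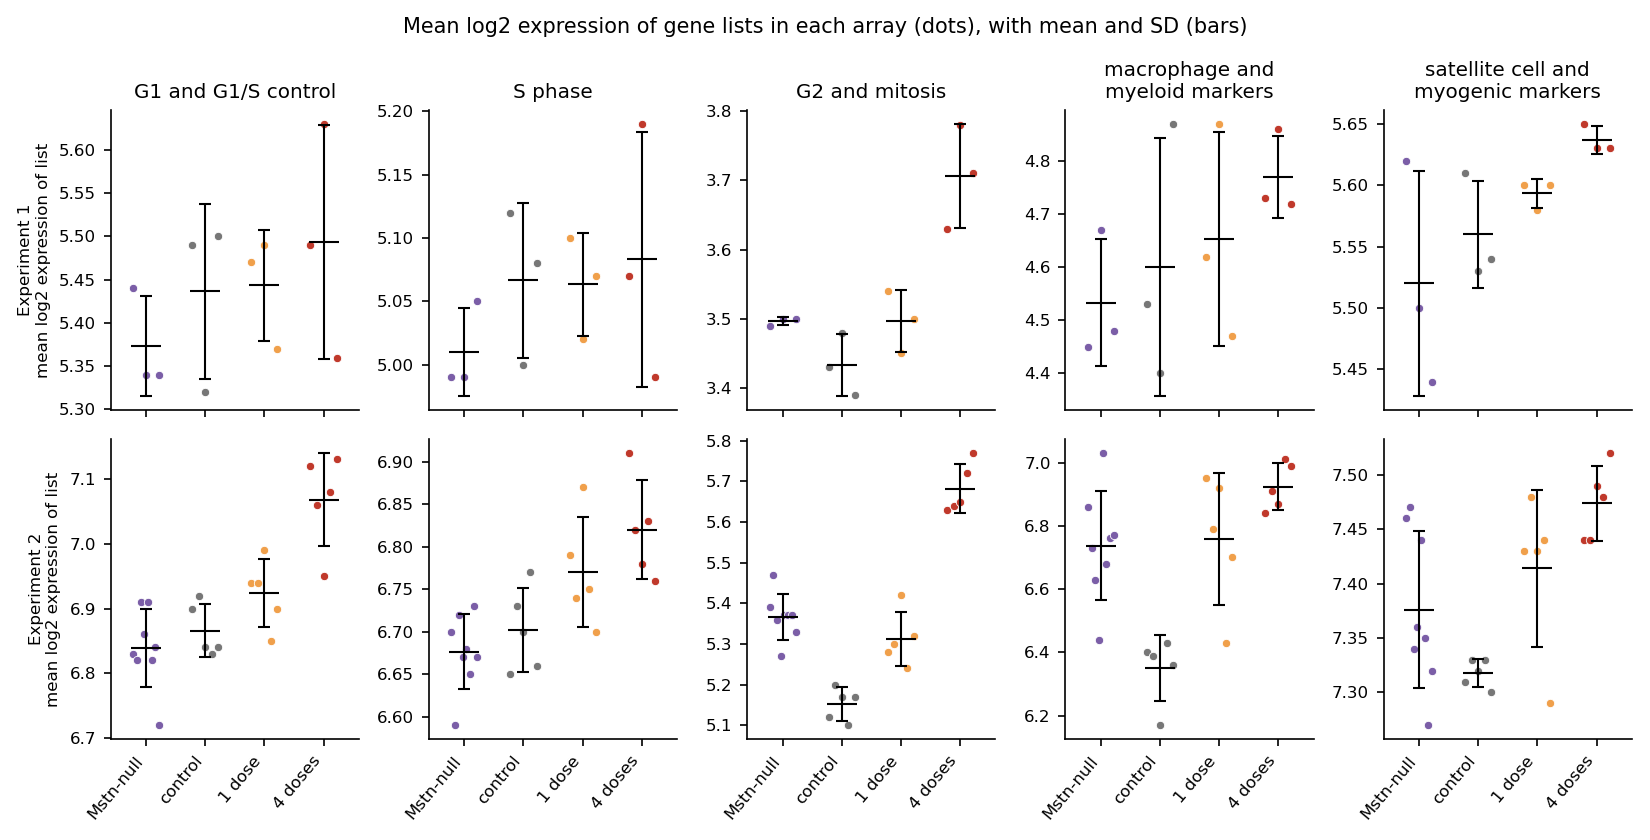
Mean log2 expression (y axis, a scale of its own in each panel) of the genes of each phase and of the macrophage and satellite cell marker lists in every array, by class (x axis), with experiment 1 in the top row and experiment 2 in the bottom row. Dots are arrays and bars the mean and SD of a group. The G2 and mitosis genes after 4 doses lie above every array of the other classes in both experiments, and the macrophage markers overlap with controls in experiment 1.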

How the data were processed

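Total RNA of mouse quadriceps was measured on Affymetrix whole-transcript arrays. The deposited table holds normalized log2 values made by the authors, 1 column per array. The log base was taken from the range of values, 0.4 to 14.697. RMA, R 2.11.1 and limma 3.4.4 are named per the submitters' processing notes, with no roles given.

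Of 35556 rows, 21789 carried 1 gene symbol, 1621 several and 12146 none. The row with the highest mean was kept for each of 19938 genes. The functions lmFit and eBayes of limma 3.58.1 (R 4.3.3) compared the classes (terms for class and experiment over 35 arrays, with a further fit of the 8 group means for single experiments) and Benjamini-Hochberg adjustment over all genes. The labels call the arrays biological replicates, so the p-values weigh each class difference against the spread between mice. In limma that spread is pooled over the arrays of a fit and moderated across genes. The number of arrays limits the precision. Tables were made with Python 3.11.15, and the fits were tested on simulated data.

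The members and lists were chosen with earlier results of these data known. Values in every array are given for the members with the smallest p after 4 doses (3 of G1 and G1/S, 3 of S phase, 4 of G2 and mitosis) and for members called against most of their phase group. Of the other pathway genes the 3 with the smallest p per phase are named, and of the markers those at the ends of a list's range. Exceptions are stated where they occur. Alternatives were quantile normalization, median centring, the interquartile range as a covariate, a replicate block, a filter on dim genes, the mean of a gene's rows, the compared classes alone, an intensity trend and leaving out each array. Leaving out ActRIIB-Fc arrays of narrow range and using the other row of genes with 2 rows were chosen after seeing the data.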

Additional observations from a re-analysis of the deposited data

Results flagged for a closer look

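In 10 of 160 groups of 5 or 8 arrays of experiment 2, 1 array stood far from the others by Dixon's test, which chance alone flags in about 1 of 20 groups. Of these, 4 were arrays after 1 dose. Ccnd1 was 6.37 in replicate 4, with the others at 6.76 to 6.91, and Rrm2 was 5.31 in replicate 4, with the others at 5.65 to 5.78. Mcm2 was 7.24 in replicate 4, with the others at 7.11 to 7.14, and Pcna was 8.49 in replicate 3, with the others at 8.25 to 8.31. After 4 doses, Ccnd2 was 8.27 in replicate 3, with the others at 8.48 to 8.51, and Tk1 was 6.83 in replicate 2, with the others at 6.94 to 6.97. In replicate 2 of the Mstn-null arrays, Cdk1 was 6.31 with the others at 5.56 to 5.81, and Kif11 was 4.27 with the others at 4.51 to 4.72. In controls, Birc5 was 5.43 in replicate 3, with the others at 5.04 to 5.12, and Kif11 was 4.83 in replicate 1, with the others at 4.63 to 4.68. The causes were not tested.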

How the results depend on the processing

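Counts are of the 40 genes called by limma. Leaving out 1 array at a time gave 15 to 18 calls for 4 doses against control, 0 to 1 for 1 dose against control (1 without control replicate 2 of experiment 2), 12 to 23 for Mstn-null against control, 6 to 9 for 4 doses against 1 dose, 15 to 20 for 4 doses against Mstn-null, 3 to 5 for 1 dose against Mstn-null, and 0 to 2 for 4 doses against control in experiment 1. With dim genes left out, 13 of the 40 were tested, and the calls were 2 for 4 doses against control (1 in G2 and mitosis, 0 in S phase, 1 in each experiment alone), 8 for Mstn-null against control (7 in experiment 2), 4 for 4 doses against Mstn-null and 1 for 4 doses against 1 dose. Of the 10009 genes tested there, these comparisons called 497 (122 in experiment 1 and 453 in experiment 2), 4849 (5313 in experiment 2), 3209 and 37. With the interquartile range as a covariate the calls among the 40 were 2 for 1 dose against control (2 in experiment 2), 2 for Mstn-null against control (6 in experiment 2, 1 for the difference between experiments), 6 for 4 doses against Mstn-null, 0 for 1 dose against Mstn-null and 6 for 4 doses against control in experiment 1. Of all 19938 genes that setting called, in the same order, 298 (341), 596 (1499 and 874), 394, 501 and 177. Under that setting Aurkb turned to -0.07 in Mstn-null muscle (limma adjusted p = 0.701). Mstn-null against control gave 12 calls after quantile normalization (10 in experiment 2) and 10 after median centring (9 in experiment 2), and 1 in experiment 1 with the mean of rows or with the other row. Over all 19938 genes the counts were 5759 (6314) and 6094 (6422), and 674 and 694 in experiment 1. Quantile normalization left 1 S-phase call after 4 doses, with 543 of all 19938 genes called. For 4 doses against control in experiment 1 there were 0 calls after centring and 0 without the narrow arrays, and 1 with an intensity trend. Over all 19938 genes these counts were 46, 2 and 73. For 1 dose against Mstn-null there were 3 calls in the compared classes alone and 2 without the narrow arrays, and 1 dose against control in experiment 2 gave 1 call in the compared classes alone. Over all 19938 genes these counts were 2332, 2962 and 1028. The causes were not tested.

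Replicate numbers did not pair the arrays: over 48 pairs with the same number, the correlation of deviations ran from -0.6 to 0.415 with a median of 0.005. With a replicate block, 16 of the 40 genes were called after 4 doses against control, and 1 in experiment 1, beside 561 and 54 of all 19938 genes. Most of these genes are dim on the arrays, and their signal over background was not analysed here.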

Other observations

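Of the 14 genes in which every array after 4 doses stood above every array of the other classes in both experiments, the 9 outside the cell cycle list were Actc1, Capn6, Cdkn1c, D17H6S56E-5, Hacd1, Igf2, Itm2a, Meox1 and Mest, named after their values were seen. Actc1 encodes cardiac actin, which developing skeletal muscle also makes, and Igf2 encodes a growth factor. Igf2, Mest and Cdkn1c are imprinted genes.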
